A study of Mus musculus with 15 samples.

Results

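The secreted Wnt ligands, their surface receptors and their secreted inhibitors were followed in stretched and unstretched mouse podocytes. The members were taken by symbol: protein-coding genes of the Wnt, Frizzled (Fzd), Sfrp, Dkk and R-spondin (Rspo) families, with Frzb, Wif1, the co-receptors Lrp5 and Lrp6, and Axin2. This gave 47 of the 55416 genes in the count table: 19 Wnt ligands, 10 Frizzled receptors, 2 co-receptors, 4 R-spondins, 11 secreted inhibitors and Axin2.

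RNA came from 15 samples of SVI, a conditionally immortalised mouse podocyte line (podocytes are the epithelial cells that wrap the capillaries of the kidney glomerulus), differentiated and grown on flexible silicone membranes. Experiment 1 had 3 unstretched samples and 6 low-stretch samples, with a membrane deflection of 5 to 6 mm per the labels. Experiment 2 had 3 unstretched samples and 3 high-stretch samples, with a deflection of 7 to 8 mm per the labels. All 4 groups are the same line, its culture on membranes was shared by stretched and unstretched samples, and no other agent is given. Low stretch was set against the unstretched samples of experiment 1 and high stretch against those of experiment 2, so amplitude and experiment cannot be told apart. The labels do not say whether the samples of a group were separate cultures, and p-values measure the spread between these samples, which may be technical.

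Wnt proteins are lipid-modified secreted ligands that bind Frizzled receptors. With the co-receptors Lrp5 or Lrp6 they keep beta-catenin from being degraded, and beta-catenin then works with Tcf and Lef factors to switch on target genes, among them Axin2, which feeds back to limit the signal. Other ligands, such as Wnt5a, Wnt5b and Wnt11, are best known for beta-catenin-independent signalling to the cytoskeleton. Sfrp proteins and Wif1 bind the ligands outside the cell, most Dkk proteins block the co-receptors, and R-spondins strengthen the signal. In podocytes, active beta-catenin signalling is known from injury and proteinuria.

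The promoter sequences of Axin2, Wnt16, Wnt5b and Wnt11 are given for reference, since Tcf and Lef factors act on target genes through short DNA words. No window is printed for Sfrp1, Sfrp2 and Fzd8, which also passed in a stretch comparison. The printed sequences are 300-base windows from RefSeq, on build GRCm38.p6, from 250 bases before to 50 bases after an annotated gene start. RefSeq windows were matched by symbol for 31 of the 47 members. Capitals mark a match to a Tcf/Lef core word, searched on both strands: the word CTTTGAA, the same word ending in other letters as CTTTGAT, and the related words CTTTGTA as well as CTTTGTT. These words cannot overlap each other on 1 strand, and each window holds at most 1 match. Axin2 lies at chr11:108920099-108920398 (plus strand), Wnt16 at chr6:22287977-22288276 (plus strand) and Wnt11 at chr7:98834862-98835161 (plus strand). The Wnt5b starts with most of the TPM lie at chr6:119467162-119467461, from which transcript Wnt5b-202 starts, and at chr6:119544298-119544597, from which Wnt5b-203 and Wnt5b-204 start (both minus strand). Another Wnt5b window, at chr6:119449337-119449636 (minus strand), is the start of Wnt5b-201, which was above 0 in 3 samples and had at most 0.139 TPM. It is not printed, and it held 1 word, CTTTGAT.
Axin2: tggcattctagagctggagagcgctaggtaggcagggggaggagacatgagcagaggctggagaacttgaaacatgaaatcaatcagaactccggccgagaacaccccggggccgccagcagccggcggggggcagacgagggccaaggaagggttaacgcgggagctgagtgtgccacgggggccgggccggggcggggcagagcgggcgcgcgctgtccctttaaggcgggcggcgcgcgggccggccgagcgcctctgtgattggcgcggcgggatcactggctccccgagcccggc
Wnt16: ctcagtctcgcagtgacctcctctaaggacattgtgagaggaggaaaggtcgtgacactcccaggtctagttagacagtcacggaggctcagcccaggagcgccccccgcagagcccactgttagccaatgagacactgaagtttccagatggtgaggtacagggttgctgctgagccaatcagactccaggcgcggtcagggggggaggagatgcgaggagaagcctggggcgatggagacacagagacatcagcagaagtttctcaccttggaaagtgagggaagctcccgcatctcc
Wnt5b, start of Wnt5b-202: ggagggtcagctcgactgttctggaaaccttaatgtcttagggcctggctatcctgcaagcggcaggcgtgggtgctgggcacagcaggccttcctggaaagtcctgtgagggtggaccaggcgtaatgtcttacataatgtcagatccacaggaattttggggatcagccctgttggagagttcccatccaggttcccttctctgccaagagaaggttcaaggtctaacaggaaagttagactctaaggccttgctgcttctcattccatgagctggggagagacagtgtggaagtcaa
Wnt5b, start of Wnt5b-203 and Wnt5b-204: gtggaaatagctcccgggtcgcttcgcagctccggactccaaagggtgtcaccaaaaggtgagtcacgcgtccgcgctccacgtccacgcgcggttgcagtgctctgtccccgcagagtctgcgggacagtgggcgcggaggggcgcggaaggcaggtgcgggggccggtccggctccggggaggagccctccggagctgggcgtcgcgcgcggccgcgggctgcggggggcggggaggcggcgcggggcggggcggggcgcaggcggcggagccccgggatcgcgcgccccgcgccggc
Wnt11: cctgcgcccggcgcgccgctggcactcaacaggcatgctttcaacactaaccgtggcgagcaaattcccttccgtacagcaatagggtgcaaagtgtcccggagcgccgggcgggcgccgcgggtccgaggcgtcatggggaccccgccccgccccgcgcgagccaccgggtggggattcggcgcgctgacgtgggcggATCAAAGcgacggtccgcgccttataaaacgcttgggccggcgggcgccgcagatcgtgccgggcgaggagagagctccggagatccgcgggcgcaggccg
The printed Wnt11 window held 1 word, CTTTGAT on the minus strand, starting at position -51 from the gene start. Another Wnt11 window, at chr7:98838595-98838894 (plus strand), is the start of Wnt11-205. It is not printed and held no word. The other 4 windows printed held none of these letters, the Axin2 window included. A match was found in 5 of the 34 windows of 300 bases that belong to members (14.7%) and in 16.9% of all 32851 such windows. A match is a description of the letters and not a site of binding.

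Among the 47 members, 30 had enough counts to be tested in experiment 1, 27 in experiment 2 and 31 in either. Fzd10 had 0 counts in all 15 samples, and 6 members had at most 3 counts in every sample. Under low stretch, 5 of the 30 tested members passed (16.7%): Axin2 and Wnt11 were higher, and Wnt5b, Sfrp1 and Fzd8 were lower. Over all 21672 genes tested the share was 5.45%, with 1.85% higher and 3.6% lower. Under high stretch, 4 of the 27 tested members passed (14.8%): Axin2 was higher, and Wnt16, Wnt5b and Sfrp2 were lower. Over all 18524 genes tested the share was 3.47%, with 1.31% higher and 2.16% lower. A gene passed where its p from the quasi-likelihood test of edgeR, after Benjamini-Hochberg adjustment over all genes, was under 0.05. DESeq2 passed 10 of 46 members under low stretch (7% of 38501 genes) and 6 of 42 under high stretch (4% of 32689 genes). These totals hold every gene with at least 1 count, also genes without an adjusted p. The DESeq2 shares are therefore not on the same base as those of edgeR. An edgeR fit of all 15 samples passed 1 (2.91% of all genes) and 6 (6.76%). In these bulk samples, fewer cells that express a gene and less RNA per cell cannot be told apart.

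The median log2 fold change of the tested members was -0.17 under low stretch, against 0.0077 over all genes tested, and -0.023 under high stretch, against -0.022. Samples of the 2 groups did not overlap for 10 tested members under low stretch (5 higher and 5 lower, against 15.9% of all genes, with 9.03% higher and 6.84% lower) and for 12 under high stretch (5 higher and 7 lower, against 20.9% of all genes, with 10.6% higher and 10.3% lower).

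The samples of experiment 1 fall into 3 runs of neighbouring description codes, each with 1 unstretched and 2 low-stretch samples (unstretched replicate 1 with low-stretch replicates 1 and 2, unstretched 2 with low 3 and 4, unstretched 3 with low 5 and 6). The labels do not say what the codes stand for. Samples of the same run deviated from their group means together (mean r = 0.438 across 22015 genes over 6 pairs). The mean r over 12 pairs from different runs was -0.218. Deviations from a group mean sum to 0, so this value follows largely from the first and is not a separate comparison. With the run as a block in the fit, 16 of the 30 members passed under low stretch (5 higher, 11 lower), and so did 28.2% of all genes, with 13.7% higher and 14.5% lower. The added members were Wnt16, Wnt5a, Wnt2b, Wnt6, Fzd1, Fzd3, Fzd7 and Lrp5, all lower, and Wnt9a, Fzd6 and Dkk3, all higher. The low-stretch count was 1 without unstretched replicate 1 (1.71% of all genes), 2 without unstretched replicate 3 (0.998%), 2 without low-stretch replicate 4 (2.81%) and 3 with the third run left out (3.95%). The high-stretch count was 0 without high-stretch replicate 3 (0.0755% of all genes), 1 without high-stretch replicate 1 (0.488%), 1 without unstretched replicate 1 (0.628%) and 8 without unstretched replicate 3 (7.77%).

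**Figure D1:**
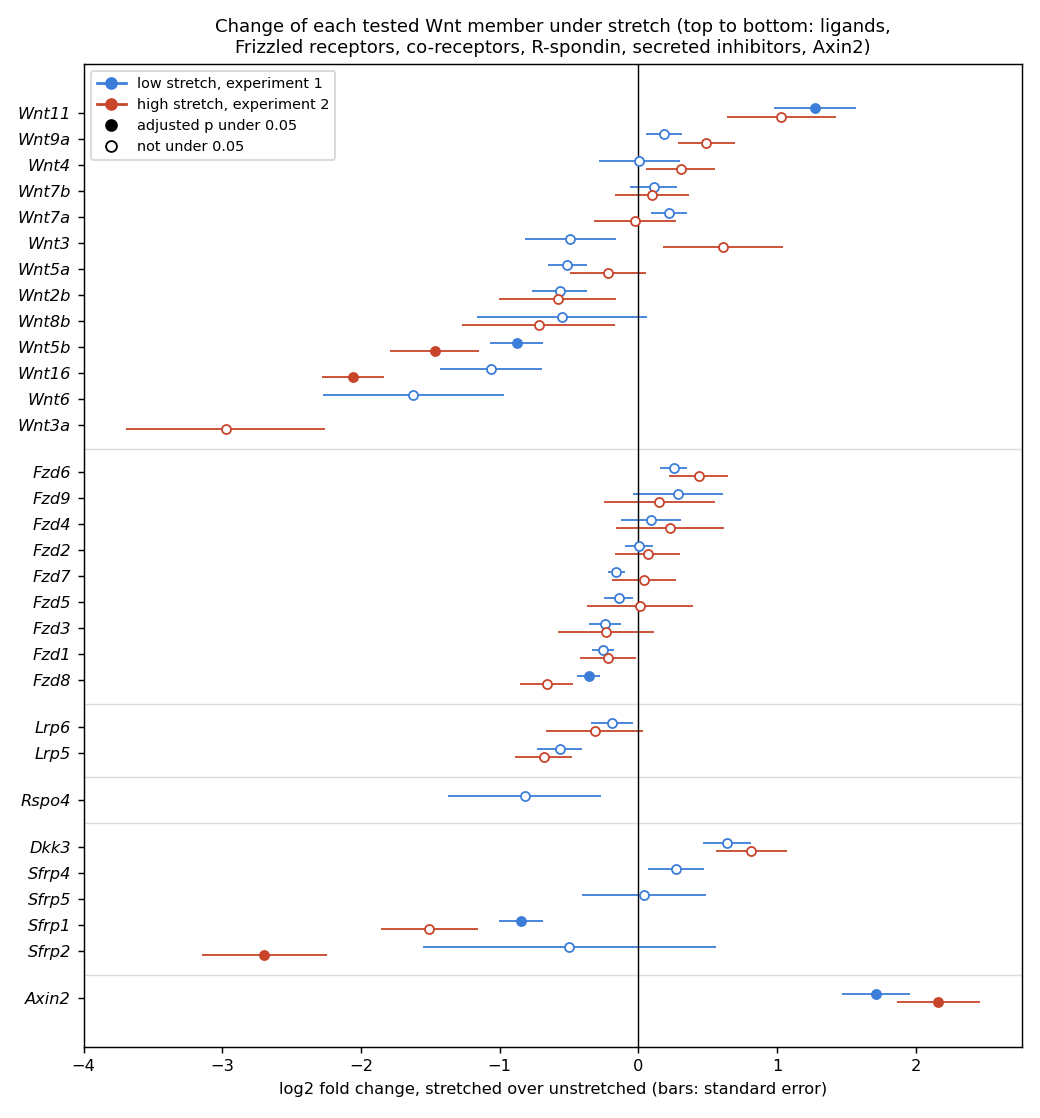
The log2 fold change (x axis) of each tested member (y axis, grouped by role) under low stretch in experiment 1 (blue, 6 against 3 samples) and high stretch in experiment 2 (red, 3 against 3 samples), with bars for the standard error of the fit and filled points for an adjusted p under 0.05. Axin2 stands highest in both comparisons, while the filled points below 0 are Wnt5b in both, Fzd8 and Sfrp1 under low stretch, and Wnt16 and Sfrp2 under high stretch.

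Axin2, a scaffold of the complex that marks beta-catenin for degradation and a direct target of the pathway, rose in both comparisons. Levels are given as CPM, read counts scaled to library size with TMM factors over all 15 samples. Axin2 was at 0.706, 0.598 and 0.517 CPM in unstretched replicates 1 to 3 of experiment 1, and its 6 low-stretch samples had a lowest value of 1.5, a median of 1.93 and a highest value of 3.08. It was at 0.833, 1.5 and 0.948 CPM in the unstretched samples of experiment 2, and at 5.11, 4.07 and 5.62 in the high-stretch samples. Every stretched sample lay above every unstretched sample of its experiment.

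On the log2 scale Axin2 differed by 1.71 ± 0.25 (SE, n = 6 and 3, adjusted p = 0.00595, edgeR) under low stretch, and it passed in 9 of 9 fits that left out 1 sample and in 9 of 9 other alternatives. Under high stretch it was 2.16 ± 0.30 (SE, n = 3 and 3, adjusted p = 0.0115, edgeR). That call was lost without high-stretch replicate 1 (adjusted p = 0.0646), high-stretch replicate 3 (0.0769) or unstretched replicate 1 (0.0681), with a log2 fold change from 1.97 to 2.49 and an adjusted p from 1.43e-10 to 0.0769 over all alternatives. Within runs, the difference in log2 CPM was 1.44, 2.11 and 1.52 in experiment 1. Between samples of the same replicate number it was 2.60, 1.43 and 2.56 in experiment 2, where the numbers were not taken to pair samples. Per length, Axin2 was a weakly expressed gene, at a mean of 0.360 TPM in the unstretched samples of experiment 1 and 1.98 TPM under high stretch.

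Wnt16, a ligand known from bone and from joint injury, had the highest TPM of all Wnt ligands in each of the 15 samples, and it fell under high stretch. TPM is scaled to transcript length as well as to library size, so that levels of different genes can be compared. Wnt16 was at 1230, 903 and 1603 TPM in the unstretched samples of experiment 1, rank 90 of 51725 genes by the mean. It made up 89.5% to 93.4% of all Wnt ligand TPM there, 75.9% to 89.7% in the low-stretch samples, 67.0% to 84.4% in the unstretched samples of experiment 2 and 42.1% to 46.4% in the high-stretch samples. The other 18 ligands together held 99.3 to 113 TPM, 78.7 to 112, 130 to 151 and 131 to 138 TPM in the same 4 groups, and these ranges overlapped between stretched and unstretched samples within each experiment.

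On the CPM scale, Wnt16 was at 560, 385 and 649 in the unstretched samples of experiment 2 and at 129, 134 and 119 in the high-stretch samples, a log2 fold change of -2.06 ± 0.23 (SE, n = 3 and 3, adjusted p = 0.00592, edgeR). The groups did not overlap, and the 3 high-stretch samples lay close to each other. The call was lost without high-stretch replicate 3 (adjusted p = 0.0628, over a range of 1.47e-13 to 0.0628). In experiment 1 it was at 991, 734 and 1320 CPM unstretched and at 225 (lowest), 420 (median) and 855 (highest) under low stretch. Low-stretch replicates 5 and 6, at 726 and 855 CPM, lay within or near the range of the unstretched samples. Low stretch gave a log2 fold change of -1.06 ± 0.37 (SE, n = 6 and 3, adjusted p = 0.112, edgeR), and -1.16 with the run block (adjusted p = 0.00153, over a range of 0.00153 to 0.41). Within the 3 runs the difference in log2 CPM was -1.60, -1.12 and -0.74.

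**Figure D2:**
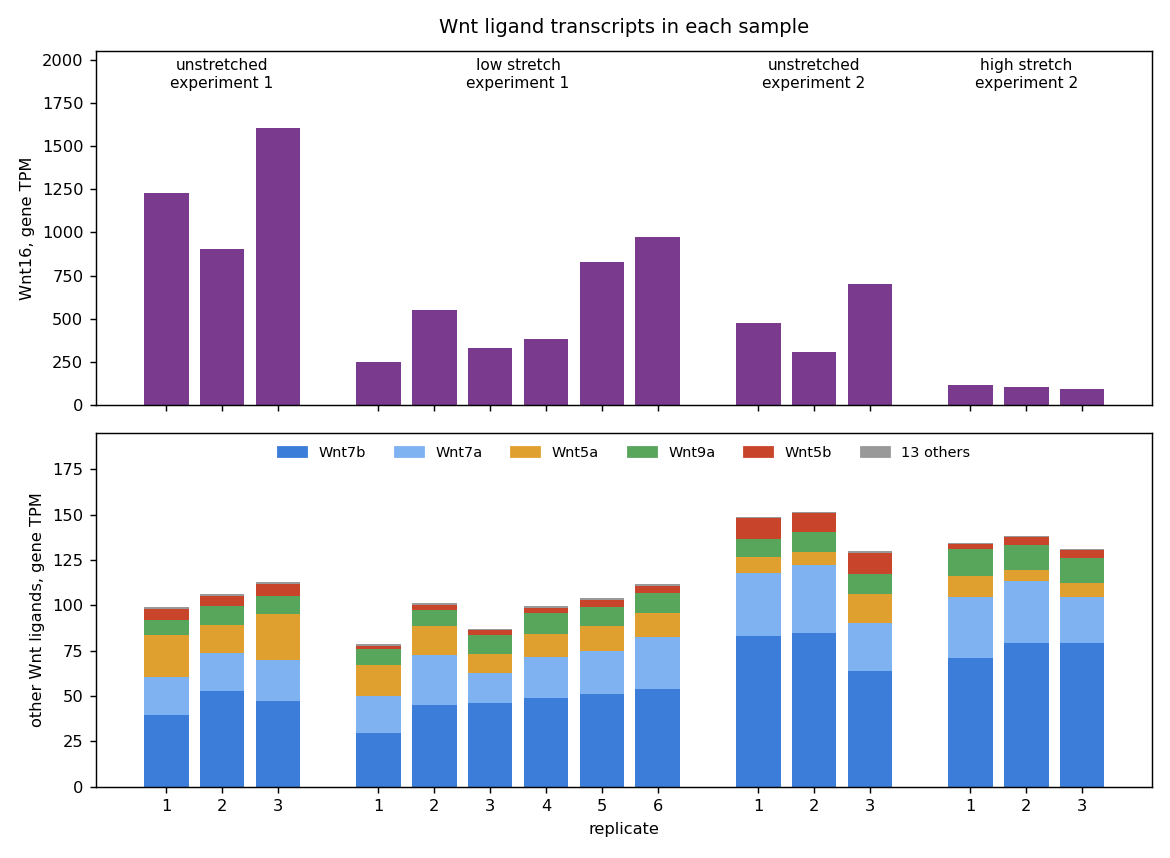
Gene TPM (y axis) of Wnt16 (upper plot) and of the other Wnt ligands, stacked (lower plot, with its own scale), in each of the 15 samples (x axis, replicate number within each group). Wnt16 ranges from 95.1 to 1603 TPM, while the sum of the other ligands stays between 78.7 and 151 TPM.

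Wnt5b, a ligand of beta-catenin-independent signalling, was lower in both comparisons. It was at 6.15, 5.61 and 6.86 CPM in the unstretched samples of experiment 1, and the low-stretch samples had a lowest value of 2.00, a median of 3.55 and a highest value of 4.27. In experiment 2 it was at 20.1, 19.6 and 15 CPM unstretched and at 3.80, 8.32 and 7.74 under high stretch. Every stretched sample lay below every unstretched sample of its experiment. Wnt5b had a log2 fold change of -0.88 ± 0.19 (SE, n = 6 and 3, adjusted p = 0.0288, edgeR) under low stretch and -1.47 ± 0.32 (SE, n = 3 and 3, adjusted p = 0.0487, edgeR) under high stretch.

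Both Wnt5b calls were near the threshold. The low-stretch call was lost without low-stretch replicate 2 (adjusted p = 0.0612) or 4 (0.0633), or without unstretched replicate 1 (0.0942), 2 (0.0569) or 3 (0.143), over a range of 0.00105 to 0.143. The high-stretch call was kept without unstretched replicate 3 (adjusted p = 0.00945) and lost without any other sample, with p-values from 0.0695 to 0.197. Both Wnt5b starts had a lower mean TPM in the stretched samples. Transcript Wnt5b-202 was at 4.45 ± 0.69 TPM (SD, n = 3) unstretched and 2.15 ± 0.56 (n = 6) under low stretch, and at 4.47 ± 1.47 (n = 3) unstretched and 1.40 ± 0.62 (n = 3) under high stretch. The sum of Wnt5b-203 and Wnt5b-204 was at 1.37 ± 0.22 and 0.797 ± 0.41 TPM in experiment 1 and at 6.50 ± 1.36 and 2.22 ± 1.15 TPM in experiment 2. In the mean of the unstretched samples, this start was below that of Wnt5b-202 in experiment 1 and above it in experiment 2, where replicate 3 had the opposite order.

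Wnt11, another ligand of the beta-catenin-independent branch that acts in kidney development, rose under low stretch from a very low level. It had 12, 12 and 14 counts in the unstretched samples and 24 to 37 in the low-stretch samples. In CPM these were 0.0353, 0.0359 and 0.0441 against a lowest value of 0.0700, a median of 0.0858 and a highest of 0.131, and the groups did not overlap. This is a log2 fold change of 1.28 ± 0.30 (SE, n = 6 and 3, adjusted p = 0.0346, edgeR). The call was lost without low-stretch replicate 1 (adjusted p = 0.0549) or 4 (0.0633), or without unstretched replicate 1 (0.138), 2 (0.0894) or 3 (0.123), over a range of 0.00697 to 0.221. Under high stretch it had 49, 52 and 62 counts against 18, 26 and 27, with a log2 fold change of 1.03 ± 0.39 (SE, n = 3 and 3) and an adjusted p of 0.266 in edgeR.

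Wnt5a, the closest relative of Wnt5b, did not pass in either comparison. It was at 56.9, 38.0 and 61.9 CPM unstretched and 31.7 to 44.4 under low stretch (log2 fold change -0.51 ± 0.14 SE, n = 6 and 3, adjusted p = 0.0619 in edgeR, 0.00287 with the run block). Under high stretch its samples overlapped, at 41.1, 23.2 and 29.5 CPM against 32.3, 29.1 and 47.6. Wnt2b was at 0.729 to 1.01 CPM unstretched and 0.403 to 0.751 under low stretch, and passed with the run block (adjusted p = 0.0186, against 0.118 without it) and in DESeq2 (adjusted p = 0.0467). Wnt6 had 10 to 13 counts unstretched and 0 to 8 under low stretch, and passed with the run block alone (adjusted p = 0.0404, against 0.163).

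Wnt7b, the second ligand by TPM, showed no change that could be told from the spread between samples. It was at 58.5, 78.3 and 70.7 CPM unstretched and 49.2 to 87.5 under low stretch, and at 196, 220 and 115 CPM unstretched and 156, 215 and 200 under high stretch. Its log2 fold changes were 0.11 ± 0.17 (SE, adjusted p = 0.729, edgeR) and 0.097 ± 0.27 (SE, adjusted p = 0.947, edgeR), and the sign turned under some alternatives. Wnt9a was higher in all 3 high-stretch samples (35.8, 42.1 and 38.3 CPM) than in the unstretched ones (28.1, 32.5 and 21.8), with an adjusted p of 0.321 in edgeR. Under low stretch it was at 15.2 to 21.9 CPM against 13.6, 17.9 and 16.6, and passed with the run block alone (log2 fold change 0.19, adjusted p = 0.0444).

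Wnt3a, the classical activator of the beta-catenin branch, was close to the limit of detection. It had 30, 17 and 14 counts in the unstretched samples of experiment 2 and 5, 3 and 1 under high stretch. Its log2 fold change was -2.97 ± 0.72 (SE, n = 3 and 3, adjusted p = 0.0678, edgeR). With the replicate block, whose numbers were not taken as pairs, it was -3.01 (adjusted p = 4.03e-04, edgeR, 8.35% of all genes passing). It was not tested in experiment 1, where it had 0 to 27 counts. Of the ligands not named above, Wnt7a, Wnt4, Wnt3 and Wnt8b were tested in both comparisons and did not pass, with log2 fold changes from -0.72 to 0.61. Wnt1, Wnt2, Wnt8a, Wnt9b, Wnt10a and Wnt10b had at most 15 counts in any sample and were not tested.

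**Figure D3:**
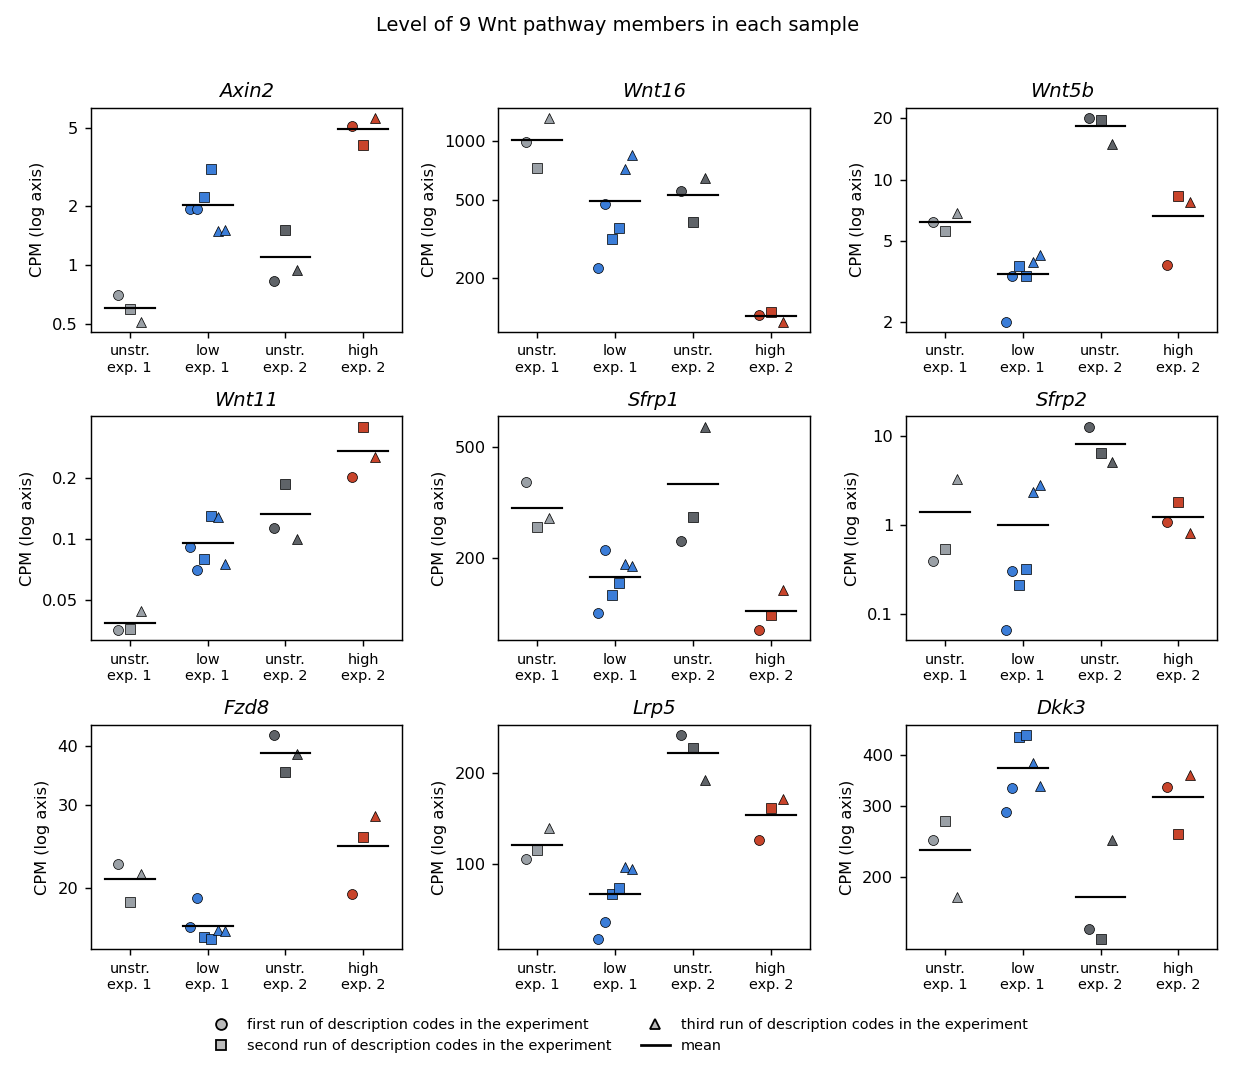
CPM on a log axis (y axis) of 9 members in each sample of the 4 groups (x axis), with marker shapes for the runs of description codes and a line for the group mean. Axin2 is higher and Wnt5b, Lrp5 and Sfrp1 are lower in every stretched sample than in every unstretched sample of the same experiment.

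Of the Frizzled receptors, the seven-pass membrane proteins that bind the ligands, Fzd8 alone passed, and only under low stretch. It was at 22.6, 18.7 and 21.5 CPM unstretched and had a lowest value of 15.6, a median of 16.3 and a highest value of 19.1 under low stretch, where replicate 2 overlapped the unstretched samples. Fzd8 had a log2 fold change of -0.36 ± 0.085 (SE, n = 6 and 3, adjusted p = 0.0374, edgeR), a small difference that was lost without unstretched replicate 1 (adjusted p = 0.169) or 3 (0.17) and without low-stretch replicate 1 (0.0631), 3 (0.0618), 4 (0.0805) or 6 (0.059), over a range of 0.00122 to 0.302. Under high stretch Fzd8 was at 19.5, 25.7 and 28.4 CPM against 42.2, 35.3 and 38.5. These groups did not overlap, and the log2 fold change of -0.66 ± 0.19 (SE, n = 3 and 3) had an adjusted p of 0.13 in edgeR. Fzd8 passed there in 0 of 6 fits that left out 1 sample and in 1 of 7 other alternatives.

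The receptors with the highest mean TPM over all samples were Fzd6, Fzd2, Fzd7 and Fzd1, in an order that differed between the experiments. In the unstretched samples of experiment 1 Fzd6 was first at 29.3 TPM and Fzd2 last of these at 20.7, while in those of experiment 2 Fzd2 was first at 29.7 and Fzd6 last of these at 16.3. Fzd6, which acts in planar polarity, was at 63.1, 54.5 and 56.0 CPM unstretched and 64.7 to 83.4 under low stretch, without overlap (log2 fold change 0.25 ± 0.099 SE, adjusted p = 0.152 in edgeR, 0.0397 with the run block). Fzd2 was at 36.3, 42.1 and 35.4 CPM unstretched and 33.9 to 44.2 under low stretch, and its log2 fold change of 0.0047 had no stable sign. Fzd1, at 51.1 to 57.8 CPM unstretched and 42.0 to 50.4 under low stretch, did not overlap and passed with the run block (log2 fold change -0.25, adjusted p = 0.0213, against 0.0925) and with limma on gene TPM (adjusted p = 0.0409). Fzd3 (-0.23, adjusted p = 0.0353, against 0.232) and Fzd7 (-0.16, adjusted p = 0.0362, against 0.146) passed with the run block alone. No Frizzled receptor passed under high stretch, where 1 of the 9 tested had an unadjusted p under 0.05, and the log2 fold changes lay between -0.66 and 0.43.

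Lrp5 and Lrp6, the co-receptors of the beta-catenin branch, did not pass in either comparison with edgeR, although Lrp5 had an unadjusted p under 0.05 in both and passed under low stretch in DESeq2 (adjusted p = 0.034). Lrp5 was at 104, 111 and 132 CPM in the unstretched samples of experiment 1 and at 56.5 (lowest), 81.2 (median) and 97.3 (highest) under low stretch. It was at 266, 241 and 190 CPM in the unstretched samples of experiment 2 and at 120, 153 and 163 under high stretch. The samples did not overlap in either experiment, and all stretched samples were the lower ones. The log2 fold change was -0.57 ± 0.16 (SE, n = 6 and 3, adjusted p = 0.0702, edgeR) under low stretch and -0.68 ± 0.20 (SE, n = 3 and 3, adjusted p = 0.135, edgeR) under high stretch. With the run block the low-stretch value was -0.59 (adjusted p = 1.65e-04, over a range of 1.65e-04 to 0.303). Within runs the difference in log2 CPM was -0.79, -0.45 and -0.44 in experiment 1. Between samples of the same replicate number, not taken as pairs, it was -1.16, -0.65 and -0.22 in experiment 2. Lrp6 overlapped between groups, at 204, 160 and 242 CPM against 136 to 222 under low stretch and at 57.6, 37.6 and 96.4 against 62.6, 34.8 and 56.7 under high stretch.

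The R-spondins, which amplify Wnt signals by removing the ligases that clear Frizzled receptors, were at the limit of detection or little above it. Rspo4 had 18 to 71 counts in the unstretched samples of experiment 1, 6 to 54 under low stretch, and 0 to 12 in experiment 2, and its low-stretch log2 fold change was -0.82 ± 0.55 (SE, adjusted p = 0.397, edgeR). Rspo2 had at most 11 counts in any sample, and Rspo1 and Rspo3 had at most 4 and 2.

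The secreted inhibitors were mainly Sfrp1 and Dkk3 by TPM, and their shares differed between stretched and unstretched samples. Sfrp1, which binds Wnt ligands and Frizzled receptors outside the cell, fell under low stretch. It was at 373, 258 and 277 CPM unstretched and had a lowest value of 128, a median of 175 and a highest value of 214 under low stretch, so every stretched sample was lower. Its log2 fold change was -0.85 ± 0.16 (SE, n = 6 and 3, adjusted p = 0.0136, edgeR). The call was lost without unstretched replicate 1 (adjusted p = 0.0726), over a range of 1.76e-04 to 0.0895.

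Under high stretch Sfrp1 was at 110, 125 and 153 CPM against 230, 281 and 591 in the unstretched samples, where replicate 3 stood well above the other two. The groups did not overlap. The log2 fold change was -1.51 ± 0.35 (SE, n = 3 and 3), with an adjusted p of 0.0595 in edgeR. With the replicate block, whose numbers were not taken as pairs, it was -1.39 (adjusted p = 3.73e-05, edgeR, 8.35% of all genes passing). Without unstretched replicate 3 it was -0.97 with an adjusted p of 0.00822, and without unstretched replicate 2 it was -1.64 with an adjusted p of 0.0411, over a range of 3.73e-05 to 0.257.

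Dkk3, a divergent member of the Dickkopf family, was higher in every stretched sample than in every unstretched sample of its experiment. It was at 247, 275 and 179 CPM unstretched and had a lowest value of 290, a median of 358 and a highest value of 448 under low stretch. In experiment 2 it was at 149, 141 and 248 CPM unstretched and at 334, 255 and 358 under high stretch. Dkk3 had log2 fold changes of 0.64 ± 0.17 (SE, n = 6 and 3, adjusted p = 0.0558, edgeR) and 0.81 ± 0.25 (SE, n = 3 and 3, adjusted p = 0.159, edgeR), so neither passed. With the run block the low-stretch value was 0.64 (adjusted p = 0.00155, over a range of 0.00155 to 0.263). The high-stretch value was 0.85 with the replicate block, not taken as pairs (adjusted p = 0.0148, edgeR, 8.35% of all genes passing). Without unstretched replicate 3 it was 1.13 (adjusted p = 0.00486, over a range of 0.00486 to 0.54).

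Per length, Sfrp1 held 41.5% to 53.4% of the TPM of all 11 secreted inhibitors in the unstretched samples of experiment 1 and 20.1% to 32.8% in the low-stretch samples. In experiment 2 its share was 50.3% to 63.5% unstretched and 19.9% to 26.7% under high stretch. Dkk3 held 45.0% to 58.2% and 67.0% to 79.8% in experiment 1, and 35.1% to 42.5% and 72.2% to 79.4% in experiment 2. Neither share overlapped between stretched and unstretched samples. Sfrp1 and Dkk3 together held most of this TPM, so their shares move against each other and are not separate results. The summed TPM of the inhibitors overlapped, at 234 to 319 unstretched and 209 to 299 under low stretch, and at 123 to 347 unstretched and 118 to 170 under high stretch.

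Sfrp2, an inhibitor of the same family as Sfrp1, fell under high stretch. It was at 12.6, 6.44 and 5.01 CPM unstretched and at 1.09, 1.81 and 0.81 under high stretch, without overlap. Its log2 fold change was -2.70 ± 0.45 (SE, n = 3 and 3, adjusted p = 0.0218, edgeR). It was lost without high-stretch replicate 1 (adjusted p = 0.121) or 3 (0.123), or without unstretched replicate 1 (0.0752), over a range of 1.38e-09 to 0.174. In experiment 1 the samples followed the runs, at 0.397 and 0.532 CPM in unstretched replicates 1 and 2 and 3.31 in replicate 3, and at 0.0664 to 0.320 CPM in low-stretch replicates 1 to 4 and 2.37 and 2.79 in replicates 5 and 6. The low-stretch log2 fold change was -0.50 ± 1.06 (SE, adjusted p = 0.811, edgeR), and it was 1.09 without unstretched replicate 3. That last fit had no run block and left the third run without an unstretched sample. Blocking on the run gave -0.797 ± 0.308 (SE, adjusted p = 0.0774, edgeR), which did not pass. In log2 CPM the low-stretch difference within the 3 runs was -1.38, -0.999 and -0.363. Of the remaining inhibitors, Sfrp4 and Sfrp5 were tested under low stretch and did not pass, Dkk1, Dkk2, Dkk4, Dkkl1 and Frzb had at most 11 counts in any sample, and Wif1 had at most 21.

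The rest of the pathway was described with gene lists. For these lists and the cell type markers below, the share of all genes that passed was 5.45% under low stretch and 3.47% under high stretch. The lists were chosen with earlier results of these data known, and they share genes. Their counts and medians are therefore not separate support. Axin2 is also a member, Lef1 and Tcf7 are also on the list of signal transduction, and Apcdd1 is also on that of surface modulators. Of 20 beta-catenin target genes, 13 were tested in each comparison. Under low stretch 3 passed, all higher: Axin2, Tcf7 (log2 fold change 0.89 ± 0.20 SE, adjusted p = 0.03, edgeR), which encodes a partner of beta-catenin at DNA, and Apcdd1 (0.56 ± 0.13 SE, adjusted p = 0.0323, edgeR), a membrane inhibitor of the pathway. With the run block 6 were higher and 1 lower, against 13.7% and 14.5% of all genes. Under high stretch 4 were higher, Axin2, Lef1, Myc and Cd44, and 1 was lower, Tnfrsf19, a receptor of the tumour necrosis factor family. The median log2 fold change of the tested genes was 0.56 under low stretch and 0.80 under high stretch, against 0.0077 and -0.022 over all genes tested.

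Lef1, the DNA-binding partner of beta-catenin, was at 0.656 to 0.885 CPM unstretched and 2.93 to 4.26 under high stretch (log2 fold change 2.27 ± 0.25 SE, n = 3 and 3, adjusted p = 0.00622, edgeR). Myc, a growth regulator, was at 13.3 to 26.0 CPM unstretched and 52.0 to 61.6 under high stretch (1.61 ± 0.26 SE, adjusted p = 0.0186, edgeR). Cd44, an adhesion receptor, was at 42.1 to 74.7 CPM unstretched and 121 to 189 under high stretch (1.48 ± 0.26 SE, adjusted p = 0.025, edgeR). These 3 had positive log2 fold changes under low stretch as well (1.22, 1.04 and 0.87), with adjusted p-values of 0.175, 0.0838 and 0.106 in edgeR. Tnfrsf19 was at 2.22 to 6.38 CPM unstretched and 0.218 to 0.777 under high stretch (-2.96 ± 0.58 SE, adjusted p = 0.0354, edgeR). Mmp7 had 0 counts in all samples, and Nkd1 and Dkk1 had at most 3 counts in the unstretched samples of both experiments.

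**Figure D4:**
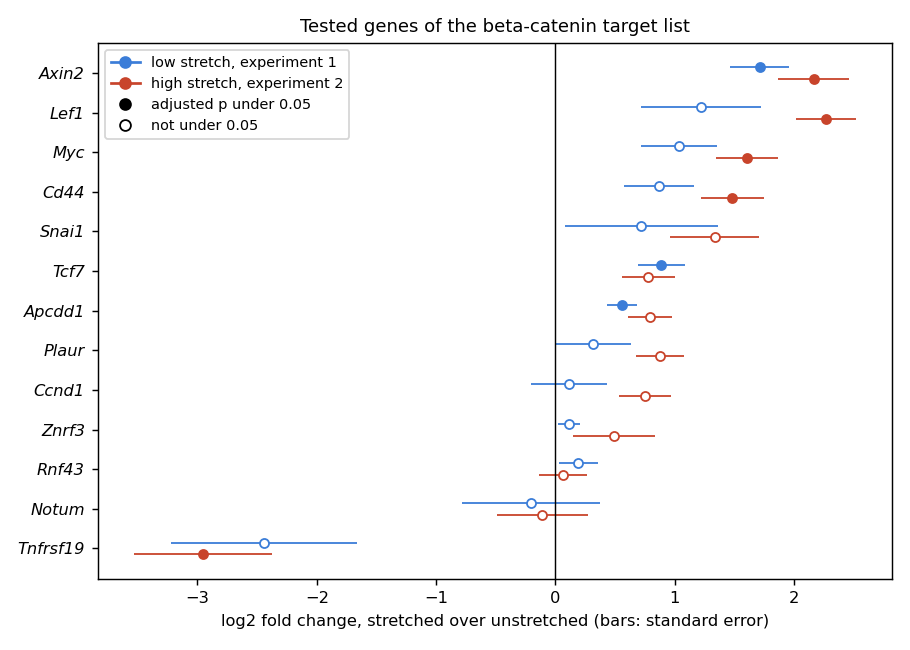
The log2 fold change (x axis) of the tested genes of the beta-catenin target list (y axis) under low stretch (blue) and high stretch (red), with bars for the standard error and filled points for an adjusted p under 0.05. Axin2 has filled points on the right in both comparisons, Lef1, Myc and Cd44 under high stretch and Tcf7 and Apcdd1 under low stretch, and Tnfrsf19 lies on the left in both.

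Of 24 genes of canonical signal transduction, all tested, Tcf7 was higher and Dvl3, which relays the signal from Frizzled, was lower under low stretch (-0.32 ± 0.077 SE, adjusted p = 0.0398, edgeR), and Lef1 was higher under high stretch. The medians were -0.0015 and -0.04. Ctnnb1, which encodes beta-catenin, was at 503 to 546 CPM unstretched and 521 to 597 under low stretch, and at 339 to 550 and 372 to 573 in experiment 2. Of 24 genes of secretion, co-receptors and surface modulators, 17 were tested under low stretch (3 higher, 1 lower) and 15 under high stretch (1 higher, 1 lower). Gpc4, a glypican that holds Wnt ligands at the surface, fell in both, from 147 to 189 CPM down to 71.8 to 114 under low stretch (-0.83 ± 0.14 SE, adjusted p = 0.00955, edgeR) and from 191 to 231 down to 95.6 to 107 under high stretch (-1.07 ± 0.16 SE, adjusted p = 0.0146, edgeR). Lgr6, a receptor for R-spondins, rose in both from at most 12 counts per sample, with 15 to 43 counts under low stretch (adjusted p = 0.0437, edgeR) and 40 to 56 under high stretch (adjusted p = 0.0457, edgeR). Apcdd1 and Tpbg, a membrane modulator of the pathway, were also higher under low stretch. Of 15 genes of the beta-catenin-independent branch, 14 were tested, and Daam1, a formin that links this branch to actin, rose under low stretch (0.51 ± 0.11 SE, adjusted p = 0.0228, edgeR) and Prickle1, a planar polarity protein, under high stretch (1.71 ± 0.34 SE, adjusted p = 0.0369, edgeR). Ror2, a receptor for Wnt5a, had at most 2 counts in any sample.

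Whether high and low stretch acted differently on the members was tested as a difference of the 2 effects. None of the 31 members tested passed, and none of 22015 genes did (0%, edgeR). An unadjusted p under 0.05 was found for no member in this fit, for 3 with the run block and for 2 in DESeq2. No member passed with the run block (0.0136% of all genes) or in DESeq2 either. The difference in Axin2 log2 fold change, high less low, was 0.43. The experiments differed without stretch: 18 of the 31 members tested passed between the unstretched samples of experiment 2 and experiment 1 (58.1%, with 11 higher and 7 lower in experiment 2), and 62.5% of all genes did, with 29.7% higher and 32.7% lower. Wnt5b (log2 fold change 1.54), Wnt7b (1.35), Fzd2 (1.13) and Lrp5 (1.00) were higher in experiment 2, and Lrp6 (-1.69), Fzd3 (-1.57) and Wnt16 (-0.95) were lower. The share of members was therefore near that of all genes.

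The study asked about alternative splicing, and the use of transcripts was tested within each gene. None of the 13 transcripts of members tested under low stretch and none of the 18 tested under high stretch passed in limma, against 0.0144% and 0% of all transcripts tested. The lowest p-values among them were those of Lrp6-205 under low stretch (0.0459 unadjusted, adjusted p = 0.491 in limma) and Wnt5b-203 under high stretch (0.0432 unadjusted, adjusted p = 0.608 in limma). Wnt16-201, the main Wnt16 transcript, held 89.0% ± 0.44 (SD, n = 3) of the gene's TPM unstretched and 90.4% ± 0.57 (n = 6) under low stretch, and 73.6% ± 7.67 and 77.6% ± 3.88 (n = 3 each) in experiment 2. Main transcripts of the other passing members were Axin2-201 with 72.2% and Wnt11-202 with 46.3% of the summed TPM, Sfrp2-201 with 97.7%, and Sfrp1-201 and Fzd8-201, each the sole transcript of its gene in the table.

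Total counts were 172.2 to 396.7 M per sample, so that 3 counts stood for 0.0076 to 0.017 CPM. Unstretched replicate 3 of experiment 2 stood apart from the other two (first principal component 31.7, against 122.0 and 163.4; mitochondrial share of counts 2.60%, against 1.56% and 1.15%). Of 16 podocyte markers, 12 were tested under low stretch and 11 under high stretch. Wt1 alone passed, lower under high stretch (log2 fold change -2.36 ± 0.45 SE, adjusted p = 0.0311, edgeR). Synpo was at 254 to 820 CPM over all samples, but Nphs1 was under 1 CPM, and Tcf21 and Foxc2 had at most 3 counts in every sample. Several defining markers of mature podocytes were thus low or absent. The summed TPM of the podocyte list was 725 to 791 unstretched and 739 to 921 under low stretch, and 783 to 833 and 934 to 977 in experiment 2.

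Markers of other cell types also differed with stretch. Of 8 leukocyte markers, 4 were tested under low stretch and 3 under high stretch, and Csf1r was lower in both. Their summed TPM was 16.8 to 17.8 unstretched, 4.84 to 9.68 under low stretch, 9.98 to 13.4 unstretched in experiment 2 and 3.82 to 4.63 under high stretch, and Adgre1, Itgam and Cd3e had at most 3 counts in every sample. Of 12 parietal or tubule epithelial markers, Cdh1 and Lrp2 were lower under low stretch and Aqp1 under high stretch, with a summed TPM of 410 to 637 and 256 to 477 in experiment 1 and 542 to 684 and 246 to 282 in experiment 2, while Epcam, Krt18, Umod and Aqp2 had at most 3 counts in every sample. Of 10 mesangial or fibroblast markers, 6 were tested in each comparison. Pdgfrb was lower under low stretch and none passed under high stretch. The summed TPM was 1438 to 2342 and 1721 to 4118 in experiment 1. It was 2621 to 4926 unstretched and 5645 to 7655 under high stretch in experiment 2, without overlap. In each group this sum was above that of the podocyte list. Of 8 endothelial markers, Ehd3 was lower under low stretch and none passed under high stretch, with a summed TPM of 25.2 to 25.7 and 13.6 to 19.3 in experiment 1 and 23.6 to 33.2 and 15.8 to 18.5 in experiment 2, and Emcn had at most 3 counts in every sample. The part of these lists in the changes of the Wnt members was not tested.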

How the data were processed

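RNA-seq of 15 samples of a mouse podocyte line was used as deposited. Per the submitters' processing notes, the authors made the gene read counts with STAR 2.7.5c and featureCounts (Subread 2.0.0) and the transcript TPM values with Salmon 1.9.0, on build mm39. DESeq2 1.38.3 is also listed there, and the strand setting of the counting is not given in the sources used here. Unstranded counting would mix overlapping antisense transcripts into a gene's count.

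Gene symbols came from GENCODE M21 and matched 52135 of 55416 genes and 137189 of 140789 transcripts. The members and gene lists were chosen with earlier results of these data known. Counts were fitted within each comparison by edgeR 4.0.16 (R 4.3.3), with TMM factors, its filter on low counts, quasi-likelihood tests and Benjamini-Hochberg adjustment over all genes tested. Transcript use was tested with limma 3.58.1 on log2 ratios of TPM with a pseudocount of 0.1. Named members were those that passed in either stretch comparison, with or without the block on runs of description codes, Axin2, Lrp5, Lrp6 and the 2 most abundant members of each role, and of each list up to 5 passing genes with the lowest p. Others were chosen after their values were seen. Alternatives were DESeq2 1.42.0, RLE factors, limma on gene TPM, other filters, other sets of samples and blocks. The fits were tested on simulated data. Intervals of counting error do not cover differences between cultures.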

Additional observations from a re-analysis of the deposited data

Results flagged for a closer look

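In the low-stretch group of 6 samples, 1 sample stood apart from the other 5 for 2 members. For Fzd8 it was replicate 2, the highest at 19.1 CPM, with the other 5 between 15.6 and 16.5 CPM. For Wnt3a, which had at most 30 counts in any sample, it was replicate 6, the highest at 0.0594 CPM. By chance alone about 1 in 20 groups contains such a sample.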

How the results depend on the processing

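Of 628 alternative values of 41 named gene results, 517 kept their direction and side of the threshold, 40 passed it newly, 45 no longer passed and 26 changed sign. The count of members called under low stretch was 5 (5.45% of all genes), 10 with DESeq2 (7%) and 1 with all 15 samples in 1 fit (2.91%). It was 16 with the run block (28.2%) and 3 with the third run left out (3.95%), an alternative chosen after seeing the data. It ranged from 1 to 6 over fits that left out 1 sample, while 0.998% to 7.57% of all genes were called. Under high stretch the count was 4 (3.47% of all genes), 6 with DESeq2 (4%) and 6 with all 15 samples (6.76%). It was 6 with no filter and 5 with limma on gene TPM. The share of all genes is not given for these fits, so their counts cannot be set against it. The high-stretch count ranged from 0 to 8 when 1 sample was left out, while 0.0755% to 7.77% of all genes were called. The cause was not tested. The difference between the stretch effects and the transcript use gave no calls among members in any alternative run. Between the unstretched groups 18 members were called (62.5% of all genes). When 1 sample was left out, 13 to 25 were called, and the share of all genes is not given for these fits.

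Replicate numbers were checked as a pairing. Samples of the same number in experiment 1 had deviations with a mean correlation of -0.0713 (-0.440 to 0.365), and in experiment 2 of 0.175 (-0.163 to 0.449), so the numbers were not taken to pair samples. In experiment 2, samples of the same number also lie in the same run of description codes. With a replicate block, 3 members were called under low stretch (2.3% of all genes) and 7 under high stretch (8.35% of all genes).

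Limma on gene TPM moved the median of all genes by -0.115 under low stretch and -0.0796 under high stretch on the log2 scale.

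The sign turned for log2 fold changes that had not passed. With limma on gene TPM, Fzd2 was -0.109 and Wnt7b -0.0427 under low stretch, and Fzd2 was -0.0205, Fzd7 -0.0378 and Wnt7b -0.0040 under high stretch. Under low stretch Fzd2 was also -0.0140 with a mean count of at least 100 and -0.0337 with the third run left out, and Wnt7b was -0.0817 with the replicate block. Over fits without 1 sample, the low-stretch value ranged from -0.0501 to 0.104 for Fzd2, from -1.14 to 1.09 for Sfrp2 and from -0.0039 to 0.225 for Wnt7b. The high-stretch value ranged from -0.315 to 0.0034 for Fzd1, -0.107 to 0.197 for Fzd2, -0.468 to 0.191 for Fzd3, -0.0898 to 0.300 for Fzd7, -0.562 to 0.116 for Lrp6, -0.832 to 0.0276 for Wnt2b, -0.474 to 0.0347 for Wnt5a and -0.122 to 0.305 for Wnt7b. The fit without unstretched replicate 3 of experiment 2 turned the sign of each of these except Fzd7. The depth limits what can be seen of the 6 members with at most 3 counts in every sample.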
